A study of Rattus norvegicus with 24 samples.

Results

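Umod, Egf, Ppp1r1a and Ckb, 4 genes listed as markers of the thick ascending limb and distal tubule, were followed in rat kidney. They were taken by gene symbol from the array's annotation, which assigns 8 probes to the 4 genes. A value was present for 4 of these probes, 1 for each gene, out of 1766 probes measured on at least 1 array and 1422 named genes with a value. The study hybridised total RNA of rat kidney to 24 cDNA arrays with 2 channels (Cy5 and Cy3), and each array set a rat on low salt beside a rat on high salt of the same strain. The 4 groups were SS at 3 days, SS overnight, SS-13BN/Mcw at 3 days and SS-13BN/Mcw overnight, with 3 rat pairs each and both dye orientations of every pair. SS is the Dahl salt-sensitive rat, and SS-13BN/Mcw is its consomic partner, in which 1 chromosome comes from the Brown Norway rat. The titles give the same low rat numbers (1 to 3) at both times, so the pairs of a strain share those rats between overnight and 3 days. No source used here states rat age, the salt content of the diets or the kidney region.

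A value below is the deposited log ratio of an array, centred on the array's median, and averaged over the 2 dye orientations of a pair. The sources used here give neither the base of the logarithm nor which rat is the numerator, so values are given as above or below 0, without a direction for salt and without folds. The reading of the sign rests on a check. With the mean of each orientation removed, the 2 arrays of a pair had a positive r over probes in 12 of 12 pairs, between 0.169 and 0.825, and without removing it r ran from -0.059 to 0.749. Opposite arrays of different pairs averaged -0.041, and the deposited ratios were therefore taken as already turned to one direction of rats. All 4 probes had a value on all 24 arrays, while the number of probes with a value ranged from 877 to 1412 per array. Slide numbers ran from 36 to 41 in SS at 3 days and 18 to 23 in SS overnight. They ran from 28 to 35 in SS-13BN/Mcw at 3 days and 24 to 43 in SS-13BN/Mcw overnight. The strain comparisons and the time comparison in SS therefore cannot be told apart from slide order. In SS-13BN/Mcw the slide numbers of the 2 times overlapped.

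The thick ascending limb reabsorbs sodium chloride without water through the apical cotransporter encoded by Slc12a1, and it builds the salt gradient of the medulla. Its cells secrete uromodulin, the most abundant protein of normal urine, encoded by Umod. Egf encodes the precursor of epidermal growth factor, made in the thick ascending limb and the distal convoluted tubule, where the growth factor is known to favour magnesium uptake. Ppp1r1a encodes inhibitor 1, which blocks protein phosphatase 1 once protein kinase A has phosphorylated it. Ckb encodes the brain-type creatine kinase, which regenerates ATP from phosphocreatine in cells with a high and changing energy demand. In samples of whole tissue, fewer cells of a type and less RNA per cell cannot be told apart.

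In the rat assembly GRCr8 the annotation places Umod on chromosome 1 (183247676 to 183261665), Egf on chromosome 2 (220893660 to 220976331), Ckb on chromosome 6 (136550583 to 136553464) and Ppp1r1a on chromosome 7 (136533031 to 136540687). None of them lies on the chromosome that differs between the strains. The 250 bases before the annotated start, from RefSeq, are shown for Umod, Egf and Ckb because the log ratios of Umod and Egf ran in part together over the rat pairs and those of Ckb did not. The windows are chr1:183261017-183261266 for Umod, chr2:220976298-220976547 for Egf and chr6:136553465-136553714 for Ckb, all on the minus strand and written 5′ to 3′. Capitals mark the motifs TATAAA and CCAAT, each searched on both strands.
Umod: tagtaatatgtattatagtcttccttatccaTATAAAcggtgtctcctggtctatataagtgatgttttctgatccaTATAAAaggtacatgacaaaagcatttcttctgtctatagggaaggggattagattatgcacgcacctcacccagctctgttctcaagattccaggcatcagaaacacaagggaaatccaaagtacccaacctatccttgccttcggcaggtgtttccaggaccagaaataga
Egf: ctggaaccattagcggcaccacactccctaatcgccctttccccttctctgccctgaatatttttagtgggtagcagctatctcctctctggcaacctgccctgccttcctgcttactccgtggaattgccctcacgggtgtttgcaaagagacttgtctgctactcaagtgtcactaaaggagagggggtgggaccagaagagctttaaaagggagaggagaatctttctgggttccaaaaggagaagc
Ckb: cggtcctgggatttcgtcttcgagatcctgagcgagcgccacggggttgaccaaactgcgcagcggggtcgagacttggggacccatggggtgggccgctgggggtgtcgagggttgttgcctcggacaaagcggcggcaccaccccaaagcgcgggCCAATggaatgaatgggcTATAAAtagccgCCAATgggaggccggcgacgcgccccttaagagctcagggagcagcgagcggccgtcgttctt
The Ckb window held 1 TATAAA, 75 bases before the start, between 2 CCAAT matches at 93 and 63 bases. The Umod window held 2 TATAAA matches at 219 and 173 bases and lies within the annotated span of the gene. The Egf window reaches into the annotated span of its gene and held neither motif. GTTAAT, a core of the HNF1 motif, had 0 matches in the 3 windows. Among 33469 rat windows of the same length, 12.9% held TATAAA, 34.0% CCAAT and 6.45% GTTAAT.

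Ppp1r1a was the gene whose log ratios stood most steadily on one side of 0. In SS rats at 3 days its values were -0.38, -0.33 and -0.21, and in SS rats overnight they were -0.32, -0.15 and -0.49. In SS-13BN/Mcw rats at 3 days its values were -0.082, -0.017 and 0.14, and overnight they were -0.20, -0.11 and -0.37. Both SS groups and the SS-13BN/Mcw overnight group lay below 0 in every pair, and the 3-day SS-13BN/Mcw group straddled 0. Single arrays were less steady. With the high-numbered rat in Cy5, 5 of 12 were above 0, and with the low-numbered rat in Cy5, 1 of 12. The group means were -0.31 ± 0.086 in SS at 3 days, -0.32 ± 0.17 in SS overnight, 0.015 ± 0.12 in SS-13BN/Mcw at 3 days and -0.23 ± 0.13 in SS-13BN/Mcw overnight (SD, n = 3 pairs each). The 2 SS means and the SS-13BN/Mcw overnight mean lay within the spread of one another.

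Egf was below 0 in 9 of 12 pairs and had its lowest group mean in SS at 3 days. Its values were -0.45, -0.19 and -0.094 in SS rats at 3 days and -0.11, 0.000347 and -0.18 in SS rats overnight. In the consomic strain they were -0.061, 0.056 and 0.062 at 3 days and -0.049, -0.035 and -0.34 overnight. The lowest value, in pair 1 of SS at 3 days, and the overnight value of pair 3 in SS-13BN/Mcw stood apart from the rest of their groups. Means were -0.25 ± 0.18 in SS at 3 days, -0.096 ± 0.089 in SS overnight, 0.019 ± 0.069 in SS-13BN/Mcw at 3 days and -0.14 ± 0.17 in SS-13BN/Mcw overnight (SD, n = 3 pairs each).

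Umod showed no common side. Its values were -0.071, 0.071 and -0.14 in SS rats at 3 days and -0.031, 0.024 and -0.30 in SS rats overnight. SS-13BN/Mcw rats had 0.068, -0.13 and 0.36 at 3 days and 0.071, -0.16 and -0.48 overnight. Each group held pairs on both sides of 0, and the widest range was that of SS-13BN/Mcw overnight. The group means, -0.048 ± 0.11 in SS at 3 days, -0.10 ± 0.17 in SS overnight, 0.099 ± 0.25 in SS-13BN/Mcw at 3 days and -0.19 ± 0.28 in SS-13BN/Mcw overnight, were each smaller than their SD (SD, n = 3 pairs each).

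Ckb had its lowest mean and its smallest spread of pair values in SS-13BN/Mcw overnight. SS-13BN/Mcw rats overnight had -0.35, -0.38 and -0.30, a mean of -0.34 ± 0.038, and the same strain at 3 days had -0.00088, 0.16 and -0.095, a mean of 0.022 ± 0.13 (SD, n = 3 pairs each). SS rats had -0.35, -0.12 and 0.17 at 3 days (-0.10 ± 0.26) and -0.21, -0.52 and 0.12 overnight (-0.20 ± 0.32). The SS groups spread over both sides of 0 at both times, with pair 3 above 0 each time. The SS-13BN/Mcw overnight pairs all lay lower than all 3-day pairs of that strain. The 2 arrays of these overnight pairs lay apart. With the high-numbered rat in Cy5 they were -0.81, -0.80 and -0.45, and with the low-numbered rat 0.10, 0.048 and -0.16. The SD of 0.038 is that of the pair means.

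**Figure D1:**
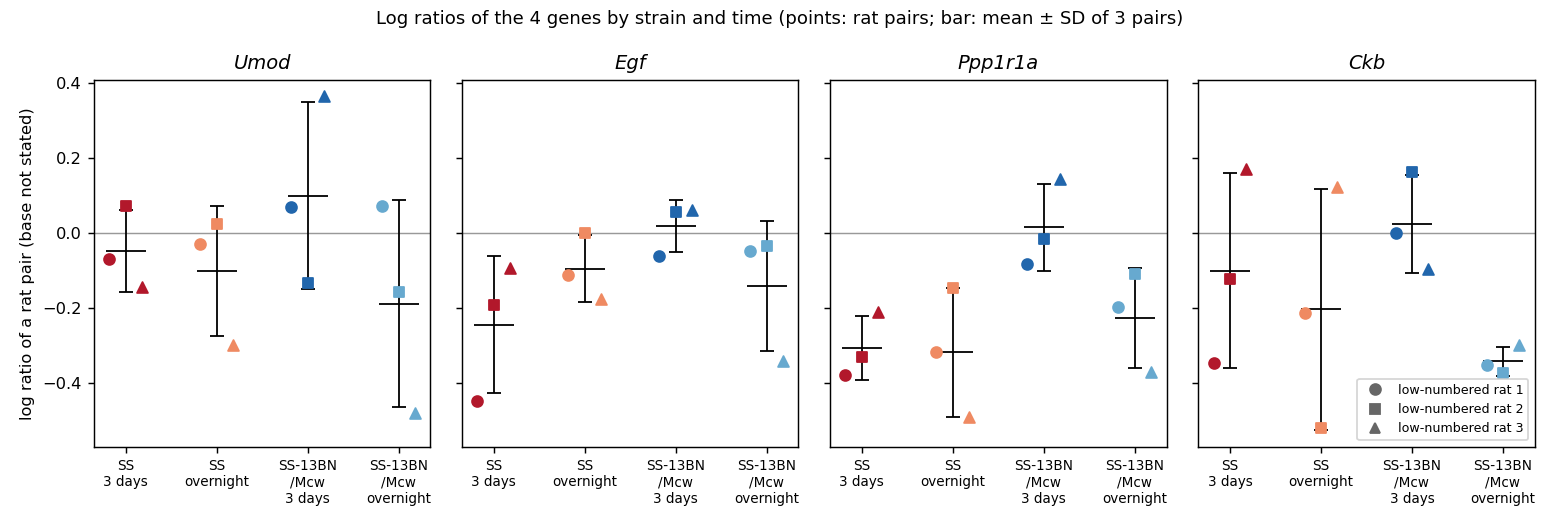
Log ratio (base not stated) of each rat pair for Umod, Egf, Ppp1r1a and Ckb in SS at 3 days, SS overnight, SS-13BN/Mcw at 3 days and SS-13BN/Mcw overnight, with the symbol showing the low-numbered rat and the bars the mean ± SD of 3 pairs. For Ppp1r1a, 11 of 12 points lie below 0, and for Ckb the SS-13BN/Mcw overnight points lie together between -0.38 and -0.30.

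Each group was tested against 0 with limma over all measured probes, with Benjamini-Hochberg adjustment and a threshold of 0.05. In SS at 3 days 0 of the 4 genes passed, where 0.34% of 883 probes did, and Ppp1r1a had the smallest adjusted p (0.158, SE 0.0805). In SS overnight 0 of 4 passed against 1.14% of 1139 probes, again with Ppp1r1a at the smallest adjusted p (0.0719, SE 0.0819). In SS-13BN/Mcw at 3 days 0 of 4 passed against 2.98% of 907 probes, and all 4 adjusted p lay between 0.691 and 0.949. In SS-13BN/Mcw overnight 0 of 4 passed against 10.5% of 1100 probes, with Ckb at 0.0796 (SE 0.115) and Ppp1r1a at 0.0968 (SE 0.0821). At an unadjusted p under 0.05 the counts were 2, 1, 0 and 2 of the 4 genes in that order of groups. Over all probes tested they were 108 of 883, 174 of 1139, 151 of 907 and 336 of 1100.

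All 4 group means lay below 0 in SS at 3 days (median -0.17), SS-13BN/Mcw overnight (-0.21) and SS overnight (-0.15), and all 4 lay above 0 in SS-13BN/Mcw at 3 days (median 0.021). Over all probes tested, 51.3% of group means were below 0 in SS at 3 days, 50.4% in SS-13BN/Mcw overnight and 48.4% in SS overnight. The share was 50.7% in SS-13BN/Mcw at 3 days. The small positive means of SS-13BN/Mcw at 3 days each turned on 1 pair. Without pair 3 the mean there was -0.033 for Umod, -0.0022 for Egf and -0.049 for Ppp1r1a, and without pair 2 it was -0.048 for Ckb. The Ckb mean of SS at 3 days also changed its sign without pair 1, to 0.022. None of the 4 means of SS-13BN/Mcw at 3 days exceeded its SD.

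Averaged over the 4 groups, Ppp1r1a passed the threshold and the other 3 genes did not. Its mean was -0.21 (SE 0.0399, 95% interval -0.30 to -0.12, limma adjusted p = 0.00295), with 11 of 12 pairs below 0. Over all probes 28.5% of 822 passed in this comparison and 15.1% passed below 0, so 1 of 4 is close to the background share. Ckb averaged -0.16 (95% interval -0.28 to -0.032, adjusted p = 0.0581) with 9 of 12 pairs below 0, and Egf averaged -0.12 (-0.21 to -0.026, adjusted p = 0.0537), also with 9 of 12. Umod averaged -0.060 (-0.18 to 0.062, adjusted p = 0.433) with 7 of 12 pairs below 0. The pair values of Umod had a median of -0.051, those of Egf -0.078, those of Ppp1r1a -0.20 and those of Ckb -0.17.

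The Ppp1r1a call passed in each of 19 other settings that kept the orientation as deposited, with values from -0.23 to -0.19 and adjusted p from 0.00023 to 0.0113, the highest with the low-numbered rat as a replicate block. It depended on the reading of the dye orientation: with the arrays turned by dye, as if ratios were Cy5 over Cy3, the value was 0.090 (adjusted p = 0.0102), on the other side of 0. The Egf and Ckb means lay near the threshold and mostly did not pass. Over the 19 settings Egf passed in 4, with limma adjusted p from 0.0302 to 0.124. Ckb passed in 3, with limma adjusted p from 0.0168 to 0.134. Without pair 3 of SS at 3 days Egf was -0.14 (adjusted p = 0.0302) and Ckb -0.19 (adjusted p = 0.0221), and without pair 3 of SS overnight Ckb was -0.20 (adjusted p = 0.0168).

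The 2 dye orientations of a pair differed strongly for some of the genes. Umod averaged 0.31 on arrays with the high-numbered rat in Cy5 and -0.43 on arrays with the low-numbered rat in Cy5. That difference was 0.74 ± 0.22 (SD, n = 12 pairs), ranged from 0.18 to 1.05, had the same sign in 12 of 12 pairs and was larger in size than that of 96.9% of probes. Of its arrays, 10 of 12 in the first orientation (-0.11 to 0.89) and 0 of 12 in the second (-0.85 to -0.16) were above 0. Ckb went the other way, with -0.37 and 0.056 in the same order of orientations, a difference of -0.43 ± 0.30 that was negative in 12 of 12 pairs and larger in size than that of 79.3% of probes. Its arrays ranged from -0.81 to 0.074 in the first orientation and from -0.41 to 0.37 in the second.

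Ppp1r1a and Egf had smaller differences between the orientations. The difference was 0.18 ± 0.17 for Ppp1r1a, positive in 11 of 12 pairs, and -0.022 ± 0.26 for Egf, positive in 7 of 12, against a median size of 0.241 over probes. Within SS at 3 days pair 2, Egf was -0.52 on one array and 0.14 on the other, the 2 arrays of a pair that lay farthest apart for this gene. Over the 12 pairs the orientations correlated with r = 0.655 for Ppp1r1a, 0.571 for Umod, 0.421 for Ckb and 0.166 for Egf, with 0.457 for the median probe. The mean of both orientations, which is the value used here, cancels an orientation difference that is the same in every pair. With the arrays turned by dye it does not cancel, and the mean of the 4 groups was then 0.37 for Umod (adjusted p = 2.09e-07) and -0.21 for Ckb (adjusted p = 5.73e-05).

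**Figure D2:**
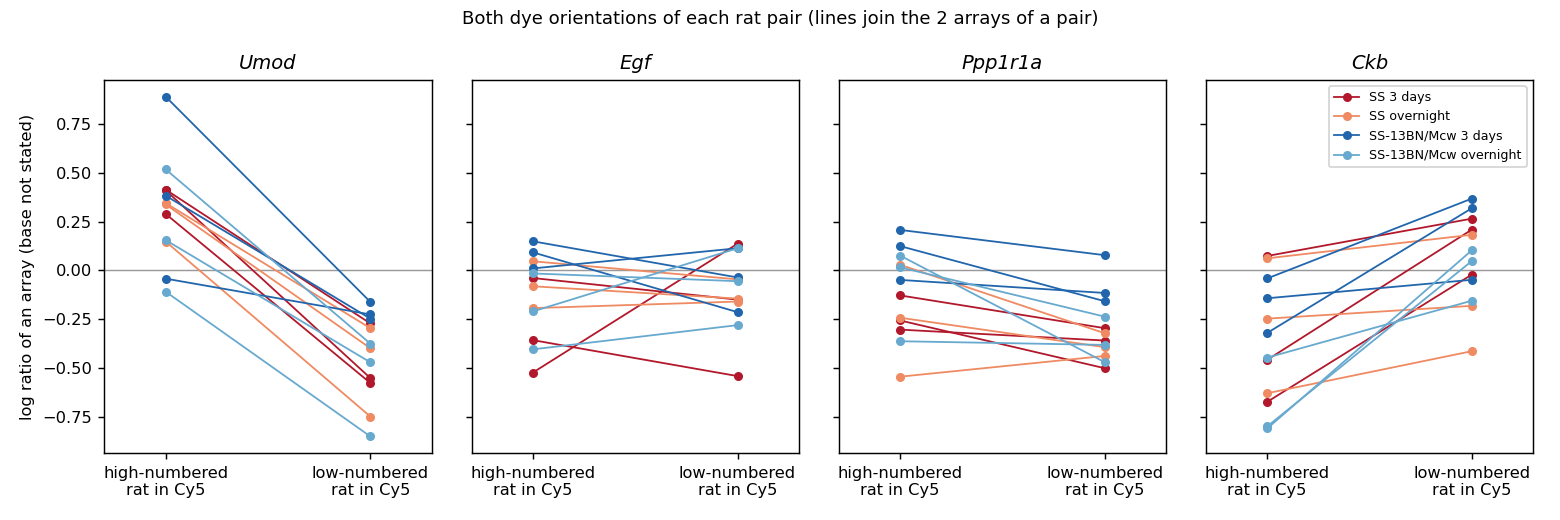
Centred log ratio (base not stated) of both arrays of each rat pair for the 4 genes, with the high-numbered rat in Cy5 at the left and the low-numbered rat in Cy5 at the right, lines joining the arrays of a pair and colours marking the 4 groups. All 12 Umod lines fall to the right and all 12 Ckb lines climb, while Egf lines run both ways.

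The strain comparison asked whether the salt log ratios of SS rats differed from those of SS-13BN/Mcw rats at the same time. At 3 days the means of all 4 genes were lower in SS (median difference -0.21). Over all probes 46.7% were lower in SS (median 0.012). For 2 of the 4 genes the pairs of the strains did not overlap. Ppp1r1a averaged -0.31 in SS and 0.015 in SS-13BN/Mcw, a difference of -0.32 (95% interval -0.57 to -0.076). Egf averaged -0.25 in SS and 0.019 in SS-13BN/Mcw, a difference of -0.26 (-0.52 to -0.010). The differences of Umod (-0.15, -0.49 to 0.20) and Ckb (-0.12, -0.47 to 0.23) had intervals that included 0, and their pairs overlapped.

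None of these differences passed over all probes: the adjusted p was 0.446 for Ppp1r1a, 0.565 for Egf, 0.782 for Umod and 0.812 for Ckb, and 0% of 824 probes passed by limma. At an unadjusted p under 0.05 there were 69 probes, Ppp1r1a (0.0146) and Egf (0.0429) among them. The exact two-sided permutation test over the 6 pairs gave p = 0.1 for both, the smallest p that 3 against 3 pairs allow, and 0.5 for both Umod and Ckb. Pairs of the strains did not overlap for 14.5% of 704 probes measured in all 6 pairs, against 2 of 4 here. The Ckb difference was 0.0002 without pair 1 of SS at 3 days, so its sign rested on that pair.

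The same comparison was made overnight. Ppp1r1a averaged -0.32 in SS and -0.23 in SS-13BN/Mcw, a difference of -0.092 (95% interval -0.34 to 0.16). The differences were 0.046 (-0.21 to 0.30) for Egf, 0.087 (-0.26 to 0.43) for Umod and 0.14 (-0.21 to 0.49) for Ckb. Pairs of the strains overlapped for all 4 genes, against 8.91% of 898 probes without overlap, and 0 of 4 passed (0% of 1053 probes by limma, 53 at an unadjusted p under 0.05). The adjusted p was 0.995 for each gene, and the exact permutation p ranged from 0.6 to 0.8. For Ppp1r1a, Umod and Ckb the interval included the value of the 3-day difference, and for Egf its lower end (-0.21) lay above the 3-day value (-0.26). The 3-day Egf difference had its own interval (-0.52 to -0.010), which overlapped the overnight one. Whether the strain difference changed with time is the interaction given below, with an interval of -0.67 to 0.050 for Egf.

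The time comparison set 3 days beside overnight within a strain. In SS-13BN/Mcw the means of all 4 genes were higher at 3 days (median difference 0.26). Over all probes 49.4% were lower at 3 days (median 0.0039). Ckb averaged 0.022 at 3 days and -0.34 overnight, a difference of 0.37 (95% interval 0.012 to 0.72, adjusted p = 0.424), and Ppp1r1a differed by 0.24 (-0.0069 to 0.49, adjusted p = 0.438). Their pairs did not overlap between the times, as for 21.5% of 745 probes measured in all 6 pairs. Umod differed by 0.29 (-0.060 to 0.64, adjusted p = 0.508) and Egf by 0.16 (-0.095 to 0.42, adjusted p = 0.562), both with overlapping pairs. By limma 0 of 4 passed, as did 0% of 897 probes, of which 101 had an unadjusted p under 0.05. Ckb was the only one of the 4 among them (0.0439).

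In SS the same comparison gave smaller and mixed values. Ckb was 0.10 higher at 3 days (95% interval -0.25 to 0.46), Umod 0.054 higher (-0.29 to 0.40), Ppp1r1a 0.011 higher (-0.24 to 0.26) and Egf 0.15 lower (difference -0.15, -0.41 to 0.11). The adjusted p was 0.988 for each, 0% of 880 probes passed by limma and 17 had an unadjusted p under 0.05. All 4 genes had overlapping pairs, where 6.70% of 761 probes did not overlap. Without pair 3 of SS overnight the signs of Umod (-0.045) and Ppp1r1a (-0.075) turned, without pair 2 of SS at 3 days that of Umod turned (-0.0051), and without pair 3 of SS at 3 days those of Ppp1r1a (-0.036) and Ckb (-0.031) turned. The Ckb value was -0.055 without pair 2 of SS overnight.

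The strain by time interaction, which is the 3-day minus overnight difference in SS less that in SS-13BN/Mcw, was -0.31 for Egf (95% interval -0.67 to 0.050), -0.26 for Ckb (-0.76 to 0.24), -0.23 for Umod (-0.72 to 0.26) and -0.23 for Ppp1r1a (-0.58 to 0.12). Its sign was negative in 4 of 4 genes and in 53.9% of all probes, with a median of -0.25 against -0.017. It passed for 0 of 4 genes (adjusted p = 0.972 each), for 0% of 822 probes by limma, and at an unadjusted p under 0.05 for 20 probes, none of them among the 4. The strain and time comparisons share groups, so the same SS-13BN/Mcw pairs at 3 days enter the strain difference, the time difference and the interaction.

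**Figure D3:**
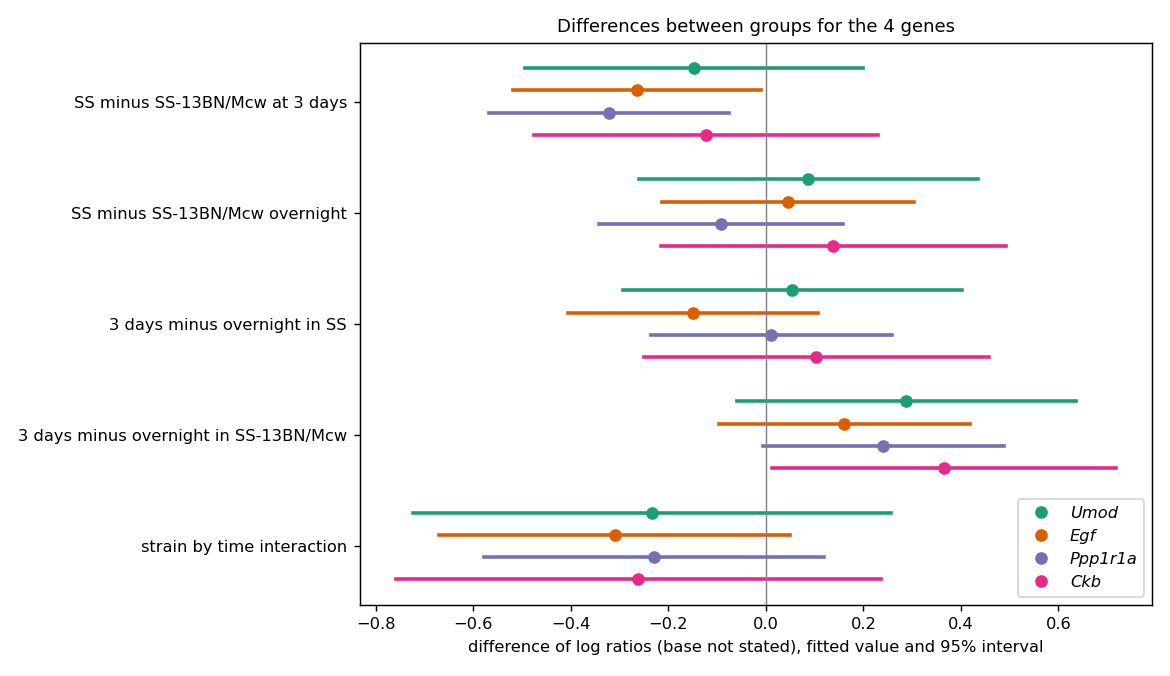
Fitted differences of log ratios (base not stated) with 95% intervals for the 4 genes in the strain comparisons, the time comparisons and their interaction. Intervals leave out 0 for Ppp1r1a and Egf in SS minus SS-13BN/Mcw at 3 days and for Ckb in 3 days minus overnight in SS-13BN/Mcw, and 0 of them passed after adjustment over all probes.

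Among themselves Ppp1r1a, Egf and Umod had higher coefficients with one another than any of them had with Ckb. Over the 12 pairs the log ratios of Ppp1r1a correlated with those of Egf (r = 0.785) and Umod (r = 0.641), and those of Egf with Umod (r = 0.506). Ckb had r = 0.216 with Egf, 0.076 with Ppp1r1a and -0.078 with Umod. With the group means removed the coefficients were 0.792 for Ppp1r1a with Egf, 0.645 for Ppp1r1a with Umod and 0.485 for Egf with Umod, while Ckb had -0.560 with Umod and -0.415 with Ppp1r1a. These values are descriptions over 12 pairs: the genes of a pair are read on the same arrays, and pairs of a strain share low-numbered rats. Pair 3 of SS-13BN/Mcw at 3 days had the highest value of all 12 for each of Ppp1r1a, Egf and Umod, and pair 3 of SS-13BN/Mcw overnight was low in all 3.

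Among 597 named probes with a value in all 12 pairs, the genes most like Ppp1r1a were Ldhb, a subunit of lactate dehydrogenase (r = 0.968), Aldh1a1, a retinal dehydrogenase (0.935), and Atp5f1c, a subunit of ATP synthase (0.882). Those running most against it were Calr, the chaperone calreticulin (-0.890), Cfl1, the actin-severing cofilin (-0.884), and Tubb5, a tubulin (-0.857). For Egf the most alike were Aldh1a1 (0.865), Ppp1r1a itself (0.785) and Atp5f1c (0.767), and the most opposed were Ptpmt1, a mitochondrial phosphatase (-0.873), Nfkb1, a subunit of NF-kappa-B (-0.819), and Bin1 (-0.806). Egf and Ppp1r1a thus had Aldh1a1 and Atp5f1c in common on their lists.

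Umod ran most closely with Acat1, a mitochondrial thiolase (0.886), Cox6c, a subunit of cytochrome c oxidase (0.850), and Copb1, a subunit of the coatomer of secretory vesicles (0.828). Its most opposed genes were Anxa2, an annexin (-0.863), Grn, which encodes progranulin (-0.783), and Atp6ap1, an accessory subunit of the vacuolar proton pump (-0.749). Ckb had a different set: Idh3g, a subunit of isocitrate dehydrogenase (0.944), Fst, which encodes follistatin (0.901), and Dbp, a transcription factor with a daily rhythm (0.885). Opposite to Ckb stood 3 ribosomal protein genes, Rps23 (-0.953), Rpl39 (-0.941) and Rpl30 (-0.922). The extremes of a search over so many probes with 12 points are large by construction, so these coefficients only rank the genes.

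The mean of the 4 genes over the pairs, searched among 594 named probes, was most like Gcgr, the glucagon receptor (0.928), Atp5f1c (0.881), Ldhb (0.869), Got1, an aspartate aminotransferase (0.841), and Cbs, cystathionine beta-synthase (0.839). It ran most against Nfkb1 (-0.905), Serpinh1, a collagen chaperone (-0.875), Slc12a2, the basolateral form of the sodium, potassium and chloride cotransporter (-0.857), Pawr (-0.848) and Ptpmt1 (-0.841).

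**Figure D4:**
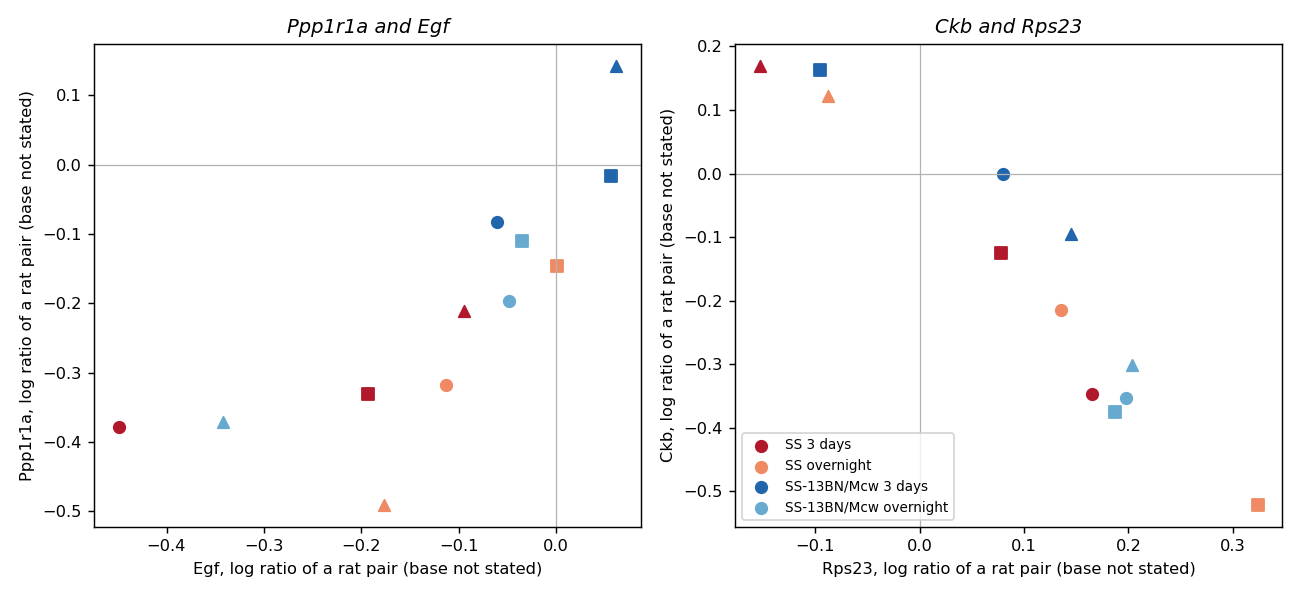
Log ratios (base not stated) of the 12 rat pairs, with Ppp1r1a against Egf at the left and Ckb against Rps23 at the right, colours marking groups and symbols the low-numbered rat. Ppp1r1a and Egf climb together (r = 0.785), and Ckb falls as Rps23 climbs (r = -0.953).

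A wider list of 30 thick ascending limb and distal genes, which includes the 4, had 10 genes with any value. Of the other 6, Slc12a1, Pvalb, Fxyd2 and Defb1 had all 12 pairs. Hpn, the membrane protease hepsin, lacked 2 pairs of SS at 3 days, and Slc12a3, the thiazide-sensitive cotransporter of the distal convoluted tubule, had a value in 1 pair only (0.25, SS-13BN/Mcw overnight). In the mean of the 4 groups 2 of 8 genes passed, Slc12a1 and Ppp1r1a, both below 0, where 28.5% of all probes passed and 15.1% passed below 0. The list's median was -0.097 against 0.0078 over all probes. Against 0 the list had 0 of 8 calls in SS at 3 days, 0 of 9 in SS overnight, 0 of 9 in SS-13BN/Mcw at 3 days and 2 of 9 in SS-13BN/Mcw overnight, Slc12a1 and Hpn, against 0.34%, 1.14%, 2.98% and 10.5% of all probes in that order.

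Slc12a1, the furosemide-sensitive cotransporter, had -0.35, -0.37 and -0.044 in SS rats at 3 days, -0.28, -0.39 and -0.17 in SS rats overnight, -0.14, 0.035 and -0.20 in SS-13BN/Mcw rats at 3 days and -0.27, -0.42 and -0.31 in SS-13BN/Mcw rats overnight. It was below 0 in 11 of 12 pairs, like Ppp1r1a. Its mean of the 4 groups was -0.24 (SE 0.0396, adjusted p = 0.00124), and SS-13BN/Mcw overnight averaged -0.33 ± 0.077 (adjusted p = 0.0239, and 0.106 without pair 2 or 0.102 without pair 3). Over the pairs it ran with Ckb (r = 0.875), and less with Egf (0.373), Ppp1r1a (0.301) and Umod (-0.026).

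Hpn had -0.28, -0.44 and -1.13 in the 3 pairs of SS-13BN/Mcw overnight, a mean of -0.62 ± 0.45 (adjusted p = 0.0422). Without pair 3 the mean was -0.36 (adjusted p = 0.237), and without pair 2 it was -0.71 (adjusted p = 0.0804), so the call rested on these pairs. Fxyd2, a regulatory subunit of the sodium pump, had -0.080 ± 0.036 in SS at 3 days, -0.053 ± 0.098 in SS overnight, 0.12 ± 0.061 in SS-13BN/Mcw at 3 days and -0.14 ± 0.14 in SS-13BN/Mcw overnight (SD, n = 3 pairs each). Like the 4 genes it had its highest mean in SS-13BN/Mcw at 3 days, and its pairs correlated with those of Umod (0.583), Ppp1r1a (0.540) and Egf (0.512). Pvalb, the calcium buffer parvalbumin, averaged -0.079 over the groups (adjusted p = 0.325), and Defb1, a beta-defensin, 0.12 (adjusted p = 0.111). Slc12a1, Pvalb and Hpn also had their highest mean in SS-13BN/Mcw at 3 days, while that of Defb1 was in SS overnight (0.19). For Pvalb this mean (-0.042 ± 0.18) was close to that of SS at 3 days (-0.052 ± 0.26). For Hpn it was -0.22 ± 0.30, against -0.26 ± 0.28 in SS overnight and -0.26 in 1 pair of SS at 3 days. The pairs of Defb1 correlated with those of Umod (0.497), Ppp1r1a (0.587) and Egf (0.579). The list includes the 4 genes. For SS minus SS-13BN/Mcw at 3 days, 8 of 8 of its genes were below 0 (median -0.17), against 46.7% of all probes (median 0.012). For 3 days minus overnight in SS-13BN/Mcw, 9 of 9 were above 0 (median 0.24), where 49.4% of all probes were below 0 (median 0.0039). In that time comparison 15 of 17 proximal tubule and 4 of 5 collecting duct markers were also above 0. Of the matrix genes 1 of 11 was. In the strain comparison 3 of 4 collecting duct markers were below 0, and 12 of 14 proximal tubule markers were above it. The list had 0 genes past the threshold in either comparison.

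**Figure D5:**
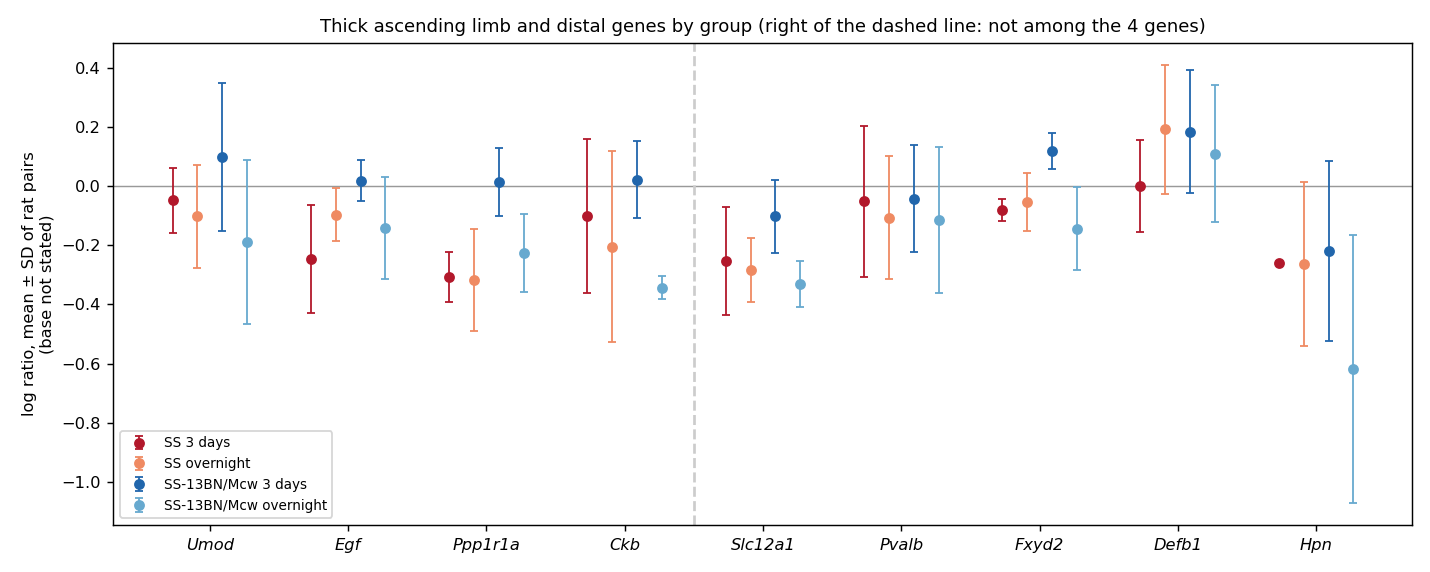
Mean log ratio ± SD (base not stated) of 3 rat pairs for 9 thick ascending limb and distal genes in SS at 3 days, SS overnight, SS-13BN/Mcw at 3 days and SS-13BN/Mcw overnight, with Umod, Egf, Ppp1r1a and Ckb left of the dashed line (Hpn in SS at 3 days is 1 pair). Slc12a1 lies below 0 in all 4 groups, at -0.25, -0.28, -0.10 and -0.33.

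Genes that act with the 4 were read from further lists, in the mean of the 4 groups, where 28.5% of all probes passed. Of 28 genes of epidermal growth factor receptor signalling, 6 were tested and 1 passed, Map2k1, which encodes the kinase MEK1, at 0.18 (adjusted p = 0.00979). Araf, an upstream kinase, was at -0.12 (adjusted p = 0.0615), near the value of Egf itself, and the list's median was -0.036. Of 23 genes of protein phosphatase 1 and cyclic AMP, 7 were tested and 3 passed, all below 0: Ppp1r1a, Gnas, the stimulatory G protein subunit (-0.12, adjusted p = 0.0153), and Adcy6, an adenylyl cyclase (-0.10, adjusted p = 0.0415, and 0.0932 with the low-numbered rat as a replicate block), with a list median of -0.100. The Adcy6 call passed in 4 of 12 fits with a single pair left out.

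Of 12 genes of the creatine kinase and nucleotide phosphate system, 6 were tested, and 2 passed on each side of 0. As above, 28.5% of all probes passed in this mean, which also holds for the sodium pump genes below. Gamt, which makes creatine, was at -0.58 (adjusted p = 0.0106), Ak3, a mitochondrial adenylate kinase, at -0.27 (adjusted p = 0.0111) and Slc6a8, the creatine transporter, at 0.11 (adjusted p = 0.0359, and 0.0715 with the replicate block). The Slc6a8 call passed in 3 of 12 fits with a single pair left out. Over the pairs, the mean of the 5 genes of that list with all pairs, which includes Ckb, correlated with Ckb at r = 0.840. Part of that r is Ckb with itself. The same measure was 0.337 for Egf and 0.473 for Ppp1r1a, each with the list that includes it. Of 7 sodium pump genes 4 were tested and 1 passed, Atp1b1, a beta subunit, at 0.28 (adjusted p = 0.00124), while Fxyd2 (-0.040, adjusted p = 0.387) and Atp1b3 (0.023, adjusted p = 0.699) did not.

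Markers of other kidney cells moved in the same samples. Of 14 proximal tubule markers tested in the mean of the 4 groups, 13 passed below 0 and 1 above (median -0.85), against the 28.5% of all probes given above. The 3 with the smallest p were Aadat (-1.18), Gsta2 (-1.16) and Hpd (-0.44), each with an adjusted p of 0.00013. The mean of the 10 proximal markers with all pairs ranged from -1.03 to -0.19 in SS at 3 days, -0.68 to -0.34 in SS overnight, -1.07 to -0.79 in SS-13BN/Mcw at 3 days and -1.74 to -0.71 in SS-13BN/Mcw overnight. Its lowest SS value was pair 1 at 3 days, where Egf and Ppp1r1a also had their lowest value of that group. Its lowest value of all was pair 3 of SS-13BN/Mcw overnight, where Egf, Ppp1r1a and Umod were lowest in their group. In SS overnight the lowest proximal value was pair 2 (-0.68), where Egf, Ppp1r1a and Umod were highest in their group. In SS-13BN/Mcw at 3 days it was pair 2 (-1.07), where Umod was lowest and Egf and Ppp1r1a were not. Over the 12 pairs the r of the proximal mean was 0.295 with Umod, 0.222 with Egf, -0.190 with Ppp1r1a and 0.353 with Ckb.

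Of 10 matrix and interstitial genes 7 passed above 0 in the same mean (median 0.32), among them Col1a1 (0.69, adjusted p = 0.00118), Serpinh1 (0.43, adjusted p = 0.00013) and Col3a1 (0.38, adjusted p = 0.00535). The mean of the 8 with all pairs ranged from 0.24 to 0.99 in SS at 3 days, 0.30 to 0.84 in SS overnight, -0.086 to -0.0066 in SS-13BN/Mcw at 3 days and 0.29 to 0.66 in SS-13BN/Mcw overnight. It ran against Egf (r = -0.767), Ppp1r1a (-0.689), Ckb (-0.509) and Umod (-0.407). Of 4 collecting duct markers 0 passed in that mean (median -0.046), with Car2 at -0.10 (adjusted p = 0.0612), Scnn1a at 0.056 (0.174) and Hsd11b2 at -0.058 (0.354). Against 0 in SS-13BN/Mcw at 3 days 1 of 5 passed, Scnn1a, which encodes an epithelial sodium channel subunit, at 0.28 (adjusted p = 0.0293), and without pair 3 of that group it was at 0.24 (adjusted p = 0.298) and without pair 2 at 0.29 (adjusted p = 0.126). Their mean ranged from -0.13 to -0.020 in SS at 3 days, -0.16 to -0.014 in SS overnight, 0.038 to 0.26 in SS-13BN/Mcw at 3 days and -0.14 to -0.085 in SS-13BN/Mcw overnight, and it ran with Ppp1r1a (r = 0.916), Egf (0.693) and Umod (0.647). Kdr of endothelium (0.069, adjusted p = 0.362) and Hbb of red blood cells (-0.070, adjusted p = 0.310) were the only genes of their lists tested in the mean of the 4 groups. Of 13 leukocyte markers, 2 were tested against 0 in SS at 3 days, 2 in SS-13BN/Mcw overnight and 3 in SS overnight, with medians of 0.32, 0.23 and 0.33, all genes above 0 and 0 past the threshold, and none could be tested in the mean of the 4 groups. The part of these other cell types in the values of the 4 genes was not tested.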

How the data were processed

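Kidney RNA of 12 rat pairs was measured on 24 arrays with 2 channels. The values are log ratios that the authors deposited, 1 for each probe and array. Neither the file headers nor the labels record a log base, numerator, background correction or normalization. As deposited, array means were within 0.00082 of 0 and array medians within 0.067. Of 3742 probe identifiers, 1766 had a value and 701 had one on all arrays. Of the measured probes 1426 had 1 gene symbol, 29 several and 311 none, and 1421 matched the gene table by number. The files hold no spot intensities, so the signal behind a value is unknown. Precision is limited by the number of rat pairs, 3 in each group, since the 2 arrays of a pair are 1 replicate.

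Arrays were centred on their medians, and both arrays of a pair were averaged without turning by dye. The fit was limma 3.58.1 (R 4.3.3, statmod 1.5.0) with 1 coefficient per group over 12 pairs, moderated by eBayes (8 residual degrees of freedom before moderation), two-sided, and adjusted by Benjamini-Hochberg over all probes with at least 2 of 3 pairs in each group used. It was tested on simulated data with independent pair values. Those data held no shared rats and no difference between orientations, so that test does not cover either. The p-values of the fit rest on how rat pairs of a group differ from one another. Because the titles reuse the low rat numbers between times, pairs with the same number in a strain were taken as linked. Deviations from the group mean of pairs with the same number correlated between times with r of 0.436, -0.053 and 0.616 in SS and 0.362, 0.290 and 0.269 in SS-13BN/Mcw, and the shared rat was used as a block in a second fit.

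Named were all probes of the 4 genes, all measured genes of the wider thick ascending limb list, up to 3 genes of smallest p in the mean of the 4 groups from each other list with a tested gene, and the 3 named genes most like and most opposed to each of the 4 (5 each for their mean). The members and lists were chosen with earlier results of these data known. Alternatives were other array scalings, an array-level fit, stricter presence, the block, single pairs left out, comparison groups fitted alone, probes of a gene averaged, and arrays turned by dye. Upstream windows came from RefSeq (GRCr8), where the table used here had no entry for Ppp1r1a. Figures were drawn with matplotlib 3.10.9.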

Additional observations from a re-analysis of the deposited data

How the results depend on the processing

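With the low-numbered rat as a replicate block none of the 4 genes changed its call: Ppp1r1a in the mean of the 4 groups stayed at -0.21 (adjusted p = 0.0113). Over all probes the block gave 176 calls of 822 in that mean, against 234 without it, and among the named list genes past the threshold there Adcy6 and Slc6a8 did not pass with it. Each count of the 4 genes is given with the share of all probes past the threshold in the same setting. The mean of the 4 groups gave 1 gene (28.5%), 2 with arrays scaled to one spread (28.8%), quantile normalized (29.3%), fitted by array (34.9%) or with all 3 pairs required (30.5%), from 1 to 3 with single pairs left out (20.7% to 34.0%), and 3 with the arrays turned by dye (69.1%). Against 0, the counts of 0 became 1 in SS at 3 days (4.30%) and 2 in SS-13BN/Mcw overnight (20.5%) in the fit by array, and 1 in SS overnight in that fit (4.30%), with scaled (4.48%) and with quantile normalized arrays (5.71%). Turned by dye they were 2 (39.0%), 1 (28.5%), 2 (33.0%) and 2 (28.1%) in SS at 3 days, SS overnight, SS-13BN/Mcw at 3 days and SS-13BN/Mcw overnight.

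Of the settings set out for single values, 18 turned the sign of a value, none of which was past the threshold, and 16 of these left out a pair. Egf in SS minus SS-13BN/Mcw overnight was -0.010 with scaled and -0.022 with quantile normalized arrays. Over left-out pairs the values ranged as follows. In SS at 3 days they ran from -0.24 to 0.022 for Ckb. In SS-13BN/Mcw at 3 days they ran from -0.033 to 0.22 for Umod, -0.0022 to 0.059 for Egf, -0.049 to 0.063 for Ppp1r1a and -0.048 to 0.081 for Ckb. For SS minus SS-13BN/Mcw at 3 days they ran from -0.26 to 0.00020 for Ckb. For SS minus SS-13BN/Mcw overnight they ran from -0.059 to 0.22 for Umod, -0.054 to 0.099 for Egf and -0.025 to 0.30 for Ckb. For 3 days minus overnight in SS they ran from -0.045 to 0.12 for Umod, -0.075 to 0.097 for Ppp1r1a and -0.055 to 0.27 for Ckb. The block and left-out pairs for list genes, and turning by dye, were added after seeing the data, the last for single values against 0 and for their mean. Turned by dye, Umod became 0.42, 0.38 and 0.38 in SS at 3 days, SS overnight and SS-13BN/Mcw overnight and 0.37 in the mean. Ppp1r1a became 0.078, 0.066, 0.14 and 0.090 in the same order, Egf in SS overnight 0.020, and Ckb in SS-13BN/Mcw at 3 days -0.19. The causes were not tested. Fitting the compared groups alone applied to neither the interaction nor the mean of the 4 groups, which use all groups. Log ratios without intensities do not show how far a spot stood above background.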
